A study of Mus musculus with 3 samples.

Results

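Fibroblasts of the mouse brain, the matrix-producing cells of the meninges and of the sheath around larger vessels, were examined here in single cells from the nucleus accumbens (NAc). They were chosen by their transcripts: a fibroblast had to hold at least 4 unique molecular identifiers (UMIs, each standing for 1 captured transcript) of Dcn, Col1a1, Col1a2 and Lum together, with at least 2 of these 4 genes detected. It also had to hold at most 1 UMI of Rgs5, a mural cell gene, and at most 1 UMI of the neuronal genes Snap25 and Syt1 together. Of 11625 deposited cells, 10291 passed a filter of 300 genes or more and 20% or less of UMIs from mitochondrial genes, and 51 of these met the rule. The members numbered 18, 28 and 5 in libraries 1, 2 and 3, where the number is the suffix of the cell barcode. The study has 1 group of 3 samples, all from Thy1::ChR2 mice, which carry channelrhodopsin-2 under the Thy1 promoter, a promoter used for expression in neurons. In every sample the FLiCRE label was applied while ChR2 was stimulated with light in the NAc, tissue came from a 400 um coronal dissection, and libraries were made with the 10x Genomics 3′ v2 kit. FLiCRE is a reporter system that marks cells active during a light pulse, and its mCherry, TEV and tTA transcripts are features of the count matrix. No sample lacks the label or the stimulation, so nothing here compares treated with untreated cells. The labels number the samples but do not tie a number to a barcode suffix. They also do not say how many mice gave each sample, so p-values refer to libraries and not to mice. With 3 libraries the tests estimate a gene's spread partly from other genes, so a small p-value does not show that the libraries agreed.

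Fibroblasts build and remodel the extracellular matrix: they secrete fibrillar collagens, the proteoglycans that organise collagen fibrils, and, at the brain surface and along vessels, part of the basement membrane. In the brain they lie in the dura, in the arachnoid barrier, in the pia and in the perivascular space, and the layers differ in collagens, solute carriers and retinoid enzymes. Meningeal fibroblasts are known as a source of retinoic acid, of insulin-like growth factor II and of the chemokine Cxcl12 for the underlying tissue.

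Fibroblasts held 100005 UMIs in all, with 28475, 62037 and 9493 in libraries 1 to 3, so that 1 UMI equalled 10.0 counts per 1000000 UMIs (CPM) over the pooled members and 105 CPM in library 3. CPM here scales the UMIs of a gene to the UMIs of all genes in the summed cells. Because UMIs count 3′ ends, these levels do not scale with transcript length. A median fibroblast had 1592 UMIs (range 509 to 7845) and 948 genes. The 4526 other non-neuronal cells, with at most 1 UMI of Snap25, Syt1 and Snhg11 together, held 8008685 UMIs, with a median of 1200 UMIs and 711 genes per cell. Libraries shared 13, 7 and 22 barcodes in pairs, and 0 members had a shared one. No doublet caller was run.

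The share of fibroblasts among these cells and the fibroblasts together was 1.10% in library 1 (exact Clopper-Pearson 95% interval 0.655% to 1.74%), 1.38% in library 2 (0.916% to 1.98%) and 0.550% in library 3 (0.179% to 1.28%). The mean was 1.01% ± 0.421 (SD, n = 3 libraries), and the 3 intervals overlap. The gate sets no limit on Snhg11, and 10 of the 51 members were above the limit of the comparison cells; counting only the other 41, a choice made after seeing the data, gave a mean of 0.827% ± 0.345 (SD, n = 3 libraries). These intervals, and all bounds from a count of 0, cover counting error only. The 4 gate genes alone admitted 67 cells, of which 8 were left out for Rgs5 and 8 for Snap25 and Syt1. The values that chose the members were a median of 4 UMIs per cell for Dcn, 2 for Col1a1, 3 for Col1a2 and 1 for Lum, and none of these is used as a result. Just inside the threshold, 6 members had 4 or 5 gate UMIs, and Col3a1 was detected in 2, Igf2 in 6 and Slc6a13 in 5 of them. Just outside it, in 7 cells with 2 or 3 gate UMIs, the same genes were detected in 2, 1 and 4 cells. Since the rule picks cells by matrix genes, the direction of the other matrix genes below is partly set by that choice.

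The label was checked against genes that the rule did not use. Col3a1, a fibrillar collagen, was detected in 74.5% of fibroblasts, the decorin relative Bgn in 74.5% and the fibroblast receptor Pdgfra in 49.02%. In 1145 cells with oligodendrocyte transcripts (median 2014 UMIs, against 1592 in fibroblasts), which should lack these genes, the shares were 0.699%, 0.699% and 0.349%. In the 253 mural cells described below (median 1232 UMIs), a class of the same vessel wall, they were 15.4%, 43.1% and 0.395%. Markers of other cell types were low but not absent. Of 12 endothelial markers Pecam1 and Esam were at 0 and the list summed to 492, 967 and 948 CPM in libraries 1 to 3, against 24523 CPM in endothelial cells. Of 12 mural markers Notch3, Higd1b, Cspg4 and Atp13a5 were at 0, and 92 of the 129 UMIs of that list were Vtn. The rule's limit on Rgs5 partly sets the low level of mural markers, as that on Snap25 and Syt1 does for neuron markers. Oligodendrocyte markers summed to 667, 2515 and 737 CPM, astrocyte markers to 2810, 1241 and 948 CPM, microglia and macrophage markers to 1896, 661 and 316 CPM, and neuron markers to 316, 903 and 1053 CPM. Oligodendrocyte precursor markers summed to 281, 306 and 211 CPM, against 1109 CPM in other non-neuronal cells. Precursor cells were not among the classes in which Pdgfra was counted above. At least 3 UMIs of oligodendrocyte markers were in 8 members, of astrocyte markers in 9, of microglial markers in 4 and of endothelial markers in 0. The 15 members with such UMIs were left out in an alternative, and another kept only the 33 members of a stricter gate (at least 8 gate UMIs with at least 3 of the 4 genes detected). These levels stand beside all gene groups that follow, and apart from that alternative their part in the results was not tested.

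Fibroblasts were compared with other non-neuronal cells by summing UMIs per library and testing the sums with edgeR's quasi-likelihood F test, with the library as a block. Of 9155 genes tested, 237 were higher in fibroblasts (2.59%) and 377 were lower (4.12%) at an adjusted p under 0.05. Of these, 203 higher and 366 lower genes kept that direction within each of the 3 libraries. The share of all genes tested whose libraries did not overlap was not computed. Remarks below on overlap are therefore descriptions of single genes. The median log2 fold change over all genes tested was -0.59, and -0.35 with the 938 genes at 0 UMIs in fibroblasts at their bound, or at 0 where the floor of 3 UMIs allows none. Scaling the sums by their totals alone, an alternative chosen after seeing the data, gave 353 higher and 292 lower genes with a median of -0.18, a shift that applies to the fold changes below, which use TMM scaling. With 1 library left out, few genes were called: 9 higher and 0 lower genes without library 1, 6 and 8 without library 2, and 0 and 0 without library 3. In the edgeR fits without library 1 and without library 3, 693 and 1235 genes had an unadjusted p under 0.05, and DESeq2 was not run on pairs of libraries. The stricter gate could test 217 of the 237 higher genes, and so could the fit without members with markers of another class. A gene left untested is not counted below as a call that ended. Among the genes named below that were called against other non-neuronal cells, the stricter gate ended the calls of 15: Apod, Ptn, Ifitm3, Tmsb10, Foxd1, Slc22a8, Tgfbr3, Pdgfrb, Lrp1, Acta2, Cald1, Abcb1a, Ptgds, S100a6 and Sparc. Leaving out the members with markers of another class ended the calls of 15: Tmsb10, Igfbp5, Lama4, Eln, Slc22a8, Tgfbr3, Lrp1, Ccl11, Ccl19, Timp1, Cald1, Ier3, Abcg2, Igfbp4 and Sparc. The median log2 fold change over all genes tested was -1.07 there, and stands beside the list values given below for that alternative.

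The 12 genes with the largest fold change that were higher in all 3 libraries stood at or below 9.02 CPM in the other cells. The low-count filter asks for a minimum level in at least 3 of the summed counts. Genes this low in the other cells were tested only if all 3 fibroblast sums reached that minimum. For them, and for genes below that are as rare in other cells, the filter itself set the lack of overlap between groups. Lama1, the laminin chain of the pial basement membrane, was at 211, 161 and 316 CPM in fibroblasts of libraries 1 to 3 and at 1.03, 0 and 0 CPM in other non-neuronal cells. It rested on 19 UMIs against 2, a pooled ratio of 761 with an exact 95% counting interval of 184 to 6736 (edgeR adjusted p = 1.37e-25). Clec3b, which encodes the plasminogen-binding protein tetranectin, was at 246, 193 and 421 CPM against 0.517, 0.301 and 0.727 CPM (log2 fold change 8.26 ± 0.71, edgeR adjusted p = 3.43e-28; ± gives the SE throughout). Its 3 fibroblast values were all at or above 193 CPM and its 3 other values all below 1 CPM, a lack of overlap that the filter required. Cemip, a hyaluronan-degrading protein, reached 105, 242 and 211 CPM against 0, 0.902 and 0.364 CPM (log2 fold change 7.92 ± 0.74, edgeR adjusted p = 5.69e-24). Itih2, a heavy chain that binds hyaluronan, reached 70.2, 145 and 527 CPM against 0, 1.2 and 0 CPM (log2 fold change 7.83 ± 0.78, edgeR adjusted p = 2.09e-21), with the highest value in library 3. Fam180a was at 35.1, 387 and 211 CPM against 0.517, 0.902 and 1.46 CPM (log2 fold change 7.43 ± 0.67, edgeR adjusted p = 1.23e-25), and library 1, the lowest, still stood above all 3 comparison values. The other genes of this set, Cyp1b1, Col12a1, Aldh1a2, Slc6a13, Col15a1, Col13a1 and Fmod, are described with their groups.

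**Figure D1:**
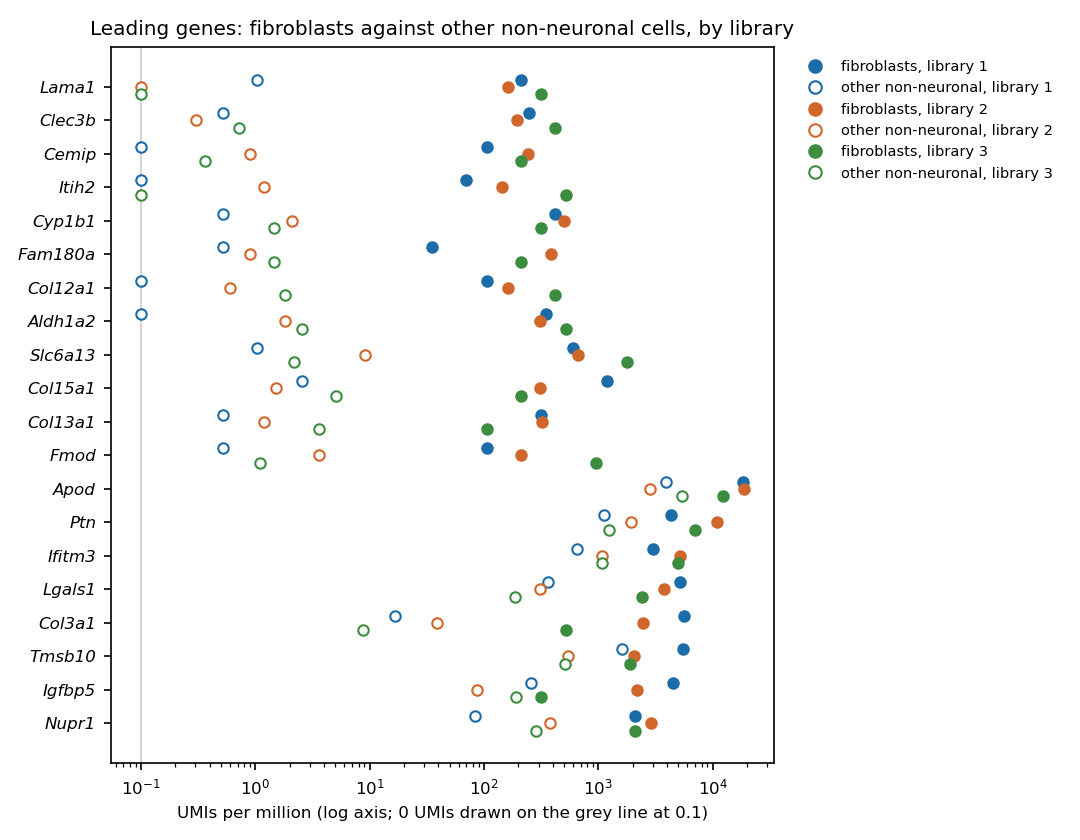
Levels in CPM (log axis) of the 12 genes with the largest fold change and the 8 called genes of highest level; filled points are fibroblasts and open points other non-neuronal cells, 1 point per library. Fibroblast values of the first 12 genes lie between 35.1 and 1791 CPM, and the other cells stay at or below 9.02 CPM for each of them.

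At the other end of the scale stood the most abundant called genes. Apod, a lipid-carrying lipocalin, was the highest, at 18437, 18715 and 12430 CPM in fibroblasts against 3871, 2806 and 5406 CPM (log2 fold change 1.49 ± 0.45, edgeR adjusted p = 0.0159), and it was detected in 50 of 51 members. The call for Apod ended with DESeq2 (adjusted p = 0.0602) and with the stricter gate (edgeR adjusted p = 0.351). Oligodendrocytes, which carry Apod too, held it in 97.03% of cells. Ptn, the growth factor pleiotrophin, had UMIs in all 51 members and stood at 4355, 10913 and 6952 CPM against 1116, 1919 and 1239 CPM (log2 fold change 1.72 ± 0.40, edgeR adjusted p = 0.000608). With the stricter gate Ptn no longer passed (edgeR adjusted p = 0.0664). Lgals1, the galactoside-binding galectin 1, was at 5162, 3724 and 2423 CPM against 361, 311 and 186 CPM (log2 fold change 3.14 ± 0.39, edgeR adjusted p = 2.36e-13). Every fibroblast library of Lgals1 lay above every comparison library. Nupr1, a stress-response chromatin protein, was at 2072, 2869 and 2107 CPM against 82.7, 374 and 284 CPM (log2 fold change 2.92 ± 0.38, edgeR adjusted p = 3.36e-12), again without overlap. Tmsb10, an actin-sequestering thymosin, was at 5549, 2063 and 1896 CPM against 1626, 541 and 515 CPM (log2 fold change 1.30 ± 0.38, edgeR adjusted p = 0.0144). This call ended under 7 alternatives besides the left-out libraries, DESeq2 among them (adjusted p = 0.0694).

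The lowest genes that were down in all 3 libraries had 0 UMIs in fibroblasts, so only bounds can be given, against a floor of 3 UMIs over the group (30.0 CPM). Pcdh9, a protocadherin of neural cells, stood at 147, 219 and 315 CPM in other non-neuronal cells and was at least 7.81-fold lower (edgeR adjusted p = 5.9e-06). Ctla2a, an endothelial protease inhibitor in brain, stood at 194, 226 and 175 CPM and was at least 6.68-fold lower (edgeR adjusted p = 5.67e-06). The bounds for Evi2a, the glial adhesion protein gene Hepacam, the ankyrin gene Ank3 and Luzp2 were at least 6.86, 6.05, 5.99 and 5.59-fold lower. Of the 614 called genes, 108 had 0 UMIs in fibroblasts.

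For 4 of the higher genes, those of a fibrillar and a basement membrane collagen and of 2 retinoid enzymes, the 250 bases before the RefSeq start are shown, since these groups hold some of the largest differences (RefSeq, build GRCm38.p6, 5′ to 3′ on the gene's own strand). The windows are chr1:45311288-45311537 on the plus strand for Col3a1, chr4:47207762-47208011 on the plus strand for Col15a1, chr9:71215539-71215788 on the plus strand for Aldh1a2 and chr17:79715062-79715311 on the minus strand for Cyp1b1. Capitals mark matches, on either strand, to 4 short motifs. The motif searched for the TATA box was TATAAA and that for the GC box was GGGCGG. The motif of the nuclear factor Y box was CCAAT and that of a forkhead site was GTAAACA.

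Col3a1: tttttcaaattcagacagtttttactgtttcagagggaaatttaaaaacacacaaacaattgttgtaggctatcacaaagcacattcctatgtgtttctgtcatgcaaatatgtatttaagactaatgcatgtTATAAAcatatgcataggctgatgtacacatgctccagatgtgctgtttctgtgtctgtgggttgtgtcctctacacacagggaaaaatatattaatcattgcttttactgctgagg
Col15a1: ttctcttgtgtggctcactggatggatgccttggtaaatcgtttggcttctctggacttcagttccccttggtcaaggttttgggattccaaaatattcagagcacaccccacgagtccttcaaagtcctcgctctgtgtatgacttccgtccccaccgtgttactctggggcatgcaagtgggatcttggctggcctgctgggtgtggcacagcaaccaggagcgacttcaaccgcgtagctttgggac
Aldh1a2: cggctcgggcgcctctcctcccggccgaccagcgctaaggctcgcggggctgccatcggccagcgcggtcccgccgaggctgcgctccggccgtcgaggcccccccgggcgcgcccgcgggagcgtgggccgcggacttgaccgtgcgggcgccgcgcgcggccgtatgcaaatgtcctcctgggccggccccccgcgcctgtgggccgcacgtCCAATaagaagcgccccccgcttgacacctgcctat
Cyp1b1: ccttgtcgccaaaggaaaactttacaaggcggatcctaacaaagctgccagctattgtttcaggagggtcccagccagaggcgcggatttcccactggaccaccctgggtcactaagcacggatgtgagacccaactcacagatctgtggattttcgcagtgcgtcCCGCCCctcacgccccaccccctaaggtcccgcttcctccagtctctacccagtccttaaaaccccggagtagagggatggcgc

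The Col3a1 window held TATAAA from 117 bases before the start, the Aldh1a2 window CCAAT from 36 bases before it, and the Cyp1b1 window GGGCGG on the opposite strand from 84 bases before it; the Col15a1 window held none of the 4. Over all 32851 RefSeq windows of 250 bases, 12.4% held the TATA box motif, 33.9% the CCAAT motif, 32.7% the GC box motif and 3.17% the forkhead motif. Among the 12 genes of largest fold change, 9 matched the promoter table, and the 4 motifs were in 2, 2, 3 and 0 of them, in the same order. A gene counted if any of its windows held the motif, whereas the shares above are per window. A match is a description of the letters in the window and not a bound site.

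Most of the collagens that could be tested, gate genes aside, were higher. The low-count filter left out collagens that reached its minimum in fewer than 3 sums. Those rare in other cells entered only by their fibroblast level, so the count and median that follow are partly set by the filter. The same holds for the other lists below. Of 33 listed collagen genes 23 had a UMI in fibroblasts and 16 could be tested; 14 were higher and 0 lower, against 2.59% and 4.12% of all genes tested, with a median log2 fold change of 4.76 against -0.59. Col3a1, the fibrillar partner of type I collagen in soft tissue, was at 5619, 2466 and 527 CPM against 16.5, 39.1 and 8.73 CPM (log2 fold change 6.41 ± 0.48, edgeR adjusted p = 9.41e-37). Library 1 was highest and library 3, with 5 UMIs, lowest, and no fibroblast value overlapped a comparison value. Col4a1, a basement membrane collagen of the vessel wall, was at 1580.3, 467 and 632 CPM against 74.98, 42.7 and 44.01 CPM (log2 fold change 3.40 ± 0.39, edgeR adjusted p = 4.43e-16). Its partner Col4a2 was at 983, 387 and 527 CPM against 41.9, 28.9 and 34.9 CPM. Neither overlapped between the groups. Col15a1, a multiplexin collagen that links basement membranes to the stroma, was at 1194, 306 and 211 CPM against 2.59, 1.5 and 5.09 CPM (log2 fold change 6.96 ± 0.49, edgeR adjusted p = 2.44e-42). Col18a1, the other multiplexin, was at 1229, 677 and 105 CPM against 11.9, 8.72 and 8.0 CPM (log2 fold change 5.70 ± 0.43, edgeR adjusted p = 1.77e-37). Both were highest in library 1 and lowest in library 3, where Col15a1 rested on 2 UMIs and Col18a1 on 1. Col12a1, which decorates type I fibrils, ran the other way with 105, 161 and 421 CPM against 0, 0.601 and 1.82 CPM (log2 fold change 7.35 ± 0.73, edgeR adjusted p = 4.93e-21). The transmembrane collagen Col13a1 was at 316, 322 and 105 CPM against 0.517, 1.2 and 3.64 CPM (log2 fold change 6.87 ± 0.60, edgeR adjusted p = 3.8e-27). It was highest in library 2. The anchoring-fibril collagen Col7a1 was at 281, 96.7 and 105 CPM against 1.03, 2.41 and 1.46 CPM (log2 fold change 5.84 ± 0.71, edgeR adjusted p = 2.23e-14). Type V and VI chains followed: Col5a1, Col5a2, Col6a1 and Col6a2 had log2 fold changes of 4.83 ± 0.78, 5.57 ± 0.55, 4.50 ± 0.47 and 4.14 ± 0.73, each past the threshold. Col4a5, a further basement membrane chain, had 4.69 ± 0.62. Col27a1, at 105, 64.5 and 0 CPM against 10.3, 17.7 and 16.7 CPM, did not pass (edgeR adjusted p = 0.173), and Col9a3, at 18.6, 20.4 and 20.7 CPM in other cells, had 0 UMIs in fibroblasts, under the floor of 30.0 CPM.

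Of 27 listed collagen folding and crosslinking genes 16 were tested, of which 7 were higher and 0 lower, with a median log2 fold change of 1.34. Pcolce, which enhances procollagen processing, was at 562, 822 and 1369 CPM against 12.4, 13.5 and 13.8 CPM (log2 fold change 5.45 ± 0.41, edgeR adjusted p = 1.37e-36), the highest in library 3. Serpinh1, the collagen chaperone HSP47, was detected in 45 of 51 members, at 1826, 1273 and 1264 CPM against 67.7, 117 and 116 CPM (log2 fold change 3.36 ± 0.38, edgeR adjusted p = 1.26e-16). The groups did not overlap for either gene. Rcn3, an endoplasmic reticulum calcium-binding protein, had a log2 fold change of 4.79 ± 0.46 and the membrane collagenase gene Mmp14 one of 2.97 ± 0.53. Loxl2, a collagen crosslinking oxidase, rested on 8 UMIs with 0 in library 3 (105, 80.6 and 0 CPM against 10.3, 3.91 and 5.09 CPM; log2 fold change 3.23 ± 0.80, edgeR adjusted p = 0.00172). Bmp1, the procollagen C-proteinase, had 457, 48.4 and 105 CPM against 35.7, 24.1 and 24.01 CPM (log2 fold change 2.12 ± 0.55, edgeR adjusted p = 0.0027), and the call ended with DESeq2 (adjusted p = 0.0779). The prolyl isomerase gene Ppib, at 737, 629 and 211 CPM against 253, 295 and 215 CPM, did not pass (edgeR adjusted p = 0.34), though it did with the sums scaled by their totals (edgeR adjusted p = 0.011).

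Basement membrane genes were higher in 8 of 10 tested, with 18 listed and 0 lower (median log2 fold change 2.98). Over the 36 members without markers of another class this became 5 higher and 0 lower of 10 tested, median 2.57. Besides Lama1, the laminin chain Lamb1 passed, at 773, 226 and 0 CPM against 10.9, 10.2 and 5.09 CPM (log2 fold change 4.69 ± 0.48, edgeR adjusted p = 7.95e-20). The chains Lamc1 and Lama4 had log2 fold changes of 2.90 ± 0.47 and 3.05 ± 0.61. Lamb1 and Lama4 had 0 UMIs in library 3, and Lama4 lost its call without the members that carried markers of another class (edgeR adjusted p = 0.057). The linker protein gene Nid1 was at 386, 435 and 316 CPM against 11.9, 17.7 and 17.5 CPM (log2 fold change 4.19 ± 0.45, edgeR adjusted p = 4.39e-18). The perlecan gene Hspg2 was at 316, 242 and 421 CPM against 20.2, 13.8 and 13.1 CPM (log2 fold change 3.73 ± 0.49, edgeR adjusted p = 3.29e-12). Sparc, a collagen-binding matricellular protein, had a log2 fold change of 1.45 ± 0.37 and lost its call with the stricter gate (edgeR adjusted p = 0.062). For Nid1 and Hspg2, all fibroblast libraries stood above all comparison libraries. Lama2, the laminin chain of parenchymal vessels and muscle, was at 35.1, 48.4 and 211 CPM against 9.82, 10.2 and 11.3 CPM and did not pass (edgeR adjusted p = 0.119). It passed in cells with at least 1000 UMIs (edgeR adjusted p = 0.0397).

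Proteoglycans and matrix glycoproteins were higher in 17 of 23 tested genes of 38 listed, with 0 lower and a median log2 fold change of 3.36. The 36 members without markers of another class gave 13 higher and 0 lower of 22 tested, median 2.75. Bgn, which like the gate gene Dcn is a small leucine-rich proteoglycan, was at 2037, 999 and 527 CPM against 24.8, 30.1 and 53.5 CPM (log2 fold change 4.66 ± 0.40, edgeR adjusted p = 6.81e-28). Fmod, a fibril-binding proteoglycan of the same family, ran in the opposite order over libraries, at 105, 209.6 and 948 CPM against 0.517, 3.61 and 1.09 CPM (log2 fold change 6.70 ± 0.62, edgeR adjusted p = 3.32e-24). Neither gene overlapped between the groups. Fbln2, a fibulin of elastic fibres, was at 527, 306 and 211 CPM against 3.1, 3.91 and 3.27 CPM (log2 fold change 6.11 ± 0.53, edgeR adjusted p = 8.87e-28). Postn, the matricellular protein periostin, was at 351, 193 and 316 CPM against 1.03, 6.01 and 2.18 CPM (log2 fold change 5.72 ± 0.59, edgeR adjusted p = 1.44e-19). None of their libraries overlapped with the comparison. Thbs2, a thrombospondin, was at 105, 129 and 105 CPM against 4.14, 3.01 and 4.73 CPM (log2 fold change 4.52 ± 0.72, edgeR adjusted p = 3.44e-08). Eln, which encodes elastin, was at 316, 209.6 and 0 CPM against 4.14, 11.7 and 4.0 CPM (log2 fold change 4.36 ± 0.58, edgeR adjusted p = 8.55e-12). Library 3 held no UMI of it, and the call ended without the members with markers of another class (edgeR adjusted p = 0.181).

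**Figure D2:**
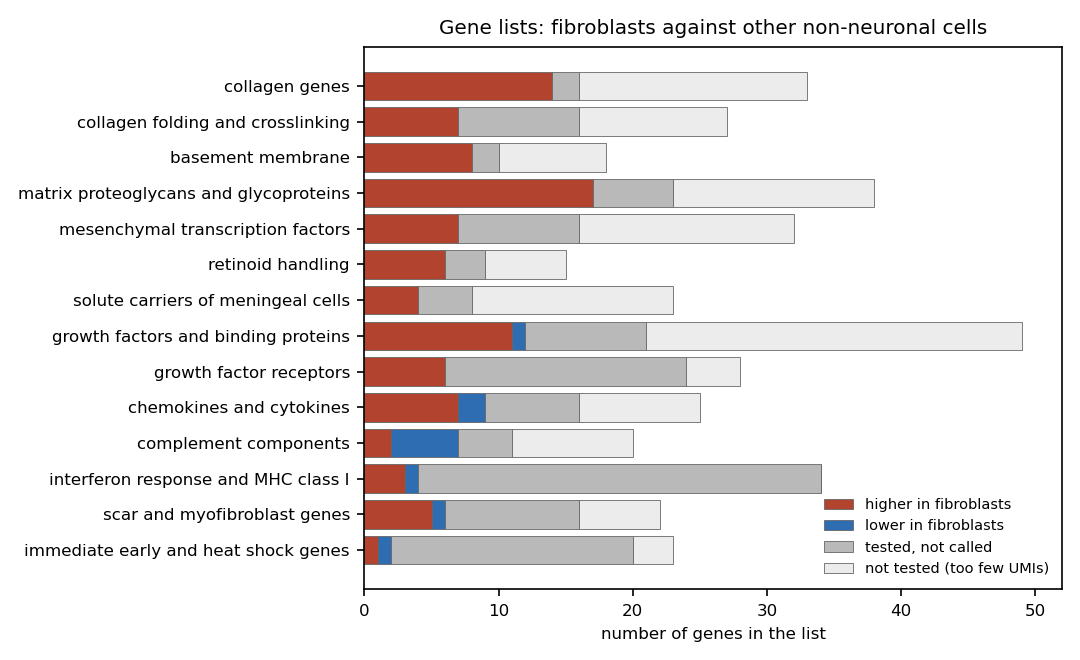
Number of genes per list (horizontal axis) that were higher, lower or not called in fibroblasts against other non-neuronal cells, or not tested for too few UMIs; bars run to the number of genes in the list. Collagens (14 higher of 16 tested) and matrix glycoproteins (17 of 23) stand out by their higher genes, and complement by 5 lower genes of 11 tested.

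Of 16 tested genes in a list of scar and myofibroblast genes (22 listed), 5 were higher and 1 lower, with a median log2 fold change of 0.49. Over the 36 members without markers of another class this became 3 higher and 1 lower of 16 tested, median -0.43, and with the stricter gate 3 were higher. Col12a1 and Postn, given above, are 2 of the 5. The third, Cthrc1, a secreted modulator of collagen deposition, was at 597, 564 and 105 CPM against 12.4, 30.7 and 18.9 CPM (log2 fold change 4.05 ± 0.42, edgeR adjusted p = 3.13e-19). Timp1, an inhibitor of metalloproteinases, was at 386, 580.3 and 105 CPM against 16.03, 91.4 and 21.1 CPM (log2 fold change 2.82 ± 0.44, edgeR adjusted p = 9.88e-09). Cald1, the actin-binding caldesmon, was at 457, 564 and 421 CPM against 78.1, 159.7 and 200.4 CPM (log2 fold change 1.41 ± 0.41, edgeR adjusted p = 0.0107). Both lost their calls without the members with markers of another class (edgeR adjusted p = 0.227 for Timp1 and 0.264 for Cald1), and that of Cald1 ended under 6 alternatives besides the left-out libraries (edgeR or DESeq2 adjusted p 0.0662 to 0.264). Acta2, the smooth muscle actin of myofibroblasts and of mural cells, was the lower one, at 105, 48.4 and 0 CPM against 32.6, 338 and 225 CPM (log2 fold change -2.16 ± 0.68, edgeR adjusted p = 0.0271). The call of Acta2 ended under 5 alternatives besides the left-out libraries (edgeR or DESeq2 adjusted p 0.0522 to 0.319). Spp1, the secreted phosphoprotein osteopontin, was at 702, 3208 and 421 CPM against 399.7, 864 and 45.1 CPM and missed the threshold (log2 fold change 1.24 ± 0.43, edgeR adjusted p = 0.0546). It passed with the sums scaled by their totals (edgeR adjusted p = 4.29e-06). Against mural cells, 0 of 7 tested genes of this list were higher and 4 lower, median -1.94, with 2 gate genes left out. Cald1 was lower there (log2 fold change -1.94 ± 0.32, edgeR adjusted p = 0.000547). Against endothelial cells 7 were higher and 0 lower of 11 tested, median 2.97.

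Transcription factors of the mesenchyme were higher in 7 of 16 tested genes of 32 listed, with 0 lower and a median log2 fold change of 1.54. The 36 members without markers of another class gave 4 higher and 0 lower of 13 tested, median -0.08. Zic1, a zinc finger factor of the meninges, was detected in 27 members at 316, 467 and 843 CPM against 13.4, 28.3 and 26.6 CPM (log2 fold change 3.90 ± 0.43, edgeR adjusted p = 1.88e-17). Foxc1, a forkhead factor needed for meningeal development, was at 281, 290.1 and 527 CPM against 12.9, 21.4 and 23.6 CPM (log2 fold change 3.61 ± 0.47, edgeR adjusted p = 2.76e-12). Tbx18, a T-box factor also used as a mural cell marker, was at 211, 161 and 421 CPM against 2.07, 12.6 and 10.2 CPM (log2 fold change 4.21 ± 0.59, edgeR adjusted p = 1.16e-10). In all 3 genes library 3 was the highest and the groups did not overlap. The nuclear receptor gene Nr2f2 (3.40 ± 0.45 on the log2 scale) and the homeobox gene Prrx2 (3.84 ± 0.71) also passed. Foxd1, a forkhead factor of stromal cells, rested on 7 UMIs and lost its call with the stricter gate (edgeR adjusted p = 0.221, against 0.00573 over all members, with a log2 fold change of 3.11 ± 0.85). Foxf2, at 70.2, 96.7 and 0 CPM against 11.9, 26.2 and 34.6 CPM, did not pass (edgeR adjusted p = 0.267). Nor did Nfib (edgeR adjusted p = 0.429). Against mural cells, 4 genes of this list were tested, with 1 higher, Foxc1 (edgeR adjusted p = 0.0375), and 1 lower. Against endothelial cells 4 were higher and 4 lower of 9 tested, median -1.38. Pooled mural levels of Tbx18, Nr2f2 and Foxd1 were 152, 322 and 107 CPM. Those of fibroblasts were 200, 340 and 70.0 CPM.

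Of 15 listed genes of retinoid handling 9 were tested, 6 were higher and 0 lower (median log2 fold change 2.67). Aldh1a2, the retinaldehyde dehydrogenase that makes retinoic acid in the meninges, was at 351, 306 and 527 CPM in fibroblasts and at 0, 1.8 and 2.55 CPM in other non-neuronal cells (log2 fold change 7.34 ± 0.59, edgeR adjusted p = 1.51e-32). Aldh1a1, another such dehydrogenase, was detected in 33 members at 316, 516 and 1896 CPM against 7.24, 33.98 and 42.9 CPM (log2 fold change 4.17 ± 0.40, edgeR adjusted p = 2.05e-22). Library 3 was the highest for both, and no fibroblast library overlapped a comparison library. Cyp1b1, a cytochrome P450 that oxidises retinoids and steroids, was at 421, 499.7 and 316 CPM against 0.517, 2.1 and 1.46 CPM (log2 fold change 7.64 ± 0.55, edgeR adjusted p = 2.08e-40). Rdh10, the retinol dehydrogenase upstream of these enzymes, was at 351, 242 and 0 CPM against 7.76, 15.3 and 11.6 CPM (log2 fold change 3.86 ± 0.52, edgeR adjusted p = 2.14e-11), with no UMI in library 3. Rarres2, a retinoid-induced gene that encodes chemerin, was at 1089, 693 and 527 CPM against 88.4, 92.3 and 73.8 CPM (log2 fold change 2.67 ± 0.38, edgeR adjusted p = 3.31e-10).

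Solute carriers known from meningeal cells were higher in 4 of 8 tested genes of 23 listed, with 0 lower and a median log2 fold change of 1.27. Over the 36 members without markers of another class this became 3 higher and 0 lower of 8 tested, median 0.37, and with no low-count filter the median was -0.76 over 21 genes. Slc6a13, the GABA and taurine transporter GAT2, was detected in 31 members and in 0.0873% of oligodendrocytes. It was at 597, 661 and 1791 CPM in fibroblasts against 1.03, 9.02 and 2.18 CPM (log2 fold change 7.09 ± 0.45, edgeR adjusted p = 6.24e-53), with library 3 the highest. Slc7a11, the cystine and glutamate exchanger, was at 1299, 1402 and 2212 CPM against 89.5, 75.2 and 61.1 CPM (log2 fold change 3.79 ± 0.38, edgeR adjusted p = 3.55e-21). The imino acid carrier gene Slc6a20a was at 211, 258 and 948 CPM against 12.9, 25.3 and 21.1 CPM (log2 fold change 3.60 ± 0.47, edgeR adjusted p = 2.78e-12). None of the 3 overlapped between groups. Slc22a8, an organic anion transporter that brain endothelium also expresses, was at 105, 129 and 316 CPM against 17.6, 19.2 and 36.01 CPM (log2 fold change 2.28 ± 0.59, edgeR adjusted p = 0.00282). It lost its call with the stricter gate (edgeR adjusted p = 0.237). Slc1a3, the glutamate transporter of astrocytes, was at 351, 693 and 1053 CPM in fibroblasts against 901, 514 and 717 CPM and did not pass (edgeR adjusted p = 0.447).

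Growth factors and their binding proteins were higher in 11 of 21 tested genes of 49 listed and lower in 1, with a median log2 fold change of 1.16. The 36 members without markers of another class gave 7 higher and 2 lower of 20 tested, median 0.78, and with no low-count filter the median was 0.14 over 47 genes. Igf2, the insulin-like growth factor of the meninges, was detected in 37 members at 878, 903 and 2423 CPM against 8.79, 11.4 and 8.73 CPM (log2 fold change 6.36 ± 0.41, edgeR adjusted p = 1.2e-49). Igfbp2, which binds IGF-II, was at 667, 1902 and 3687 CPM against 94.1, 128 and 89.8 CPM (log2 fold change 3.49 ± 0.38, edgeR adjusted p = 1.96e-17). For both the lowest fibroblast library was library 1 and it still exceeded every comparison library. Igfbp5, another binding protein, ran the other way, at 4530.3, 2160 and 316 CPM against 259, 87.5 and 191 CPM (log2 fold change 3.29 ± 0.41, edgeR adjusted p = 2.33e-13). Its call ended without the members with markers of another class (log2 fold change 1.19, edgeR adjusted p = 0.0729). The midkine gene Mdk, a relative of Ptn, the binding protein gene Igfbp4 and Bmp7, a bone morphogenetic protein of the meninges, passed at 2.53 ± 0.39, 2.93 ± 0.53 and 3.37 ± 0.62 on the log2 scale. Igfbp4 lost its call without the members with markers of another class (edgeR adjusted p = 0.0536). Ctgf, the connective tissue growth factor, was at 140.5, 48.4 and 316 CPM against 3.62, 0.902 and 2.18 CPM (log2 fold change 5.27 ± 0.79, edgeR adjusted p = 3.22e-09). Wnt5a, a noncanonical Wnt ligand, was at 105, 161 and 211 CPM against 6.21, 5.11 and 7.64 CPM (log2 fold change 4.19 ± 0.66, edgeR adjusted p = 1.78e-08). In both, all fibroblast libraries stood above all comparison libraries. Pdgfrl, a receptor-like secreted protein, was at 316, 16.1 and 211 CPM against 1.03, 3.01 and 1.82 CPM (log2 fold change 5.31 ± 0.74, edgeR adjusted p = 1.03e-10). Pdgfa, the ligand of Pdgfra, had 0 UMIs in fibroblasts against 95.1, 101 and 173 CPM and was at least 4.15-fold lower (edgeR adjusted p = 0.000638). Dkk3, a Dickkopf relative, did not pass (140.5, 64.5 and 0 CPM against 197, 70.1 and 110.2 CPM; log2 fold change -0.99 ± 0.62, edgeR adjusted p = 0.371), and was called lower without the members with markers of another class (log2 fold change -3.58, edgeR adjusted p = 0.0217).

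In the list of growth factor receptors, 6 of 24 tested genes (28 listed) were higher and 0 lower, with a median log2 fold change of 0.87; Edn3, among the 6, encodes the ligand endothelin 3 and not a receptor. With the stricter gate 2 genes of this list were higher, and with scaling by totals 10. Edn3 was at 140.5, 274 and 948 CPM against 7.24, 4.81 and 7.64 CPM (log2 fold change 5.23 ± 0.53, edgeR adjusted p = 9.71e-21), highest in library 3. Pdgfra was at 176, 467 and 1053 CPM against 15.0, 37.3 and 41.5 CPM (log2 fold change 3.41 ± 0.43, edgeR adjusted p = 2.31e-13). Pdgfrb, the receptor shared with mural cells, was at 386, 193 and 421 CPM against 49.6, 69.8 and 70.9 CPM (log2 fold change 1.71 ± 0.45, edgeR adjusted p = 0.00395). Pdgfrb lost its call with the stricter gate (edgeR adjusted p = 0.219). Fgfr1, a fibroblast growth factor receptor, had a log2 fold change of 2.03 ± 0.46 (edgeR adjusted p = 0.000325). Tgfbr3, the betaglycan coreceptor, and Lrp1, an endocytic receptor, passed at 2.61 ± 0.71 and 1.26 ± 0.42 on the log2 scale. Both lost the call with the stricter gate (edgeR adjusted p = 0.115 and 0.161), and that of Lrp1 ended under 7 alternatives besides the left-out libraries (edgeR or DESeq2 adjusted p 0.069 to 0.277). Il6st, Tgfbr2 and Axl, the receptors of interleukin 6 family cytokines, of TGF-beta and of Gas6, did not pass (edgeR adjusted p = 0.143, 0.139 and 0.235). They did with the sums scaled by their totals (edgeR adjusted p = 0.0143, 0.0223 and 0.0379).

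Chemokines and cytokines were higher in 7 and lower in 2 of 16 tested genes (25 listed), with a median log2 fold change of 1.35. Over the 36 members without markers of another class this became 5 higher and 3 lower of 16 tested, median 0.29; without the library block 4 were higher, and with no low-count filter the median was 0.25. Cxcl12, the ligand of Cxcr4, was detected in 36 members at 632, 1241 and 1369 CPM against 62.1, 66.2 and 101 CPM (log2 fold change 3.30 ± 0.39, edgeR adjusted p = 4.08e-15). Il34, a ligand of the microglial receptor Csf1r, was detected in 31 members at 316, 419 and 1264 CPM against 17.6, 29.2 and 34.6 CPM (log2 fold change 3.77 ± 0.41, edgeR adjusted p = 2.23e-17). These 2 were spread over many cells and did not overlap between groups. The CC chemokines were concentrated in fewer cells. Ccl2, a monocyte attractant, was detected in 11 members at 702, 919 and 948 CPM against 26.9, 131 and 38.9 CPM (log2 fold change 3.26 ± 0.40, edgeR adjusted p = 3.89e-14). All 20 Ccl2 UMIs of library 1 lay in 1 cell, and 1 cell of library 2 held 27 of the 86 over all members. Ccl7, a related attractant, was detected in 13 members at 492, 983 and 316 CPM against 9.82, 138 and 29.8 CPM (log2 fold change 3.20 ± 0.43, edgeR adjusted p = 8.55e-12). Ccl11, the eosinophil attractant eotaxin, had UMIs in 7 members and none in library 3 (527, 774 and 0 CPM against 5.69, 64.3 and 5.82 CPM; log2 fold change 3.999 ± 0.44, edgeR adjusted p = 2.67e-17). Ccl8, another monocyte attractant, had a log2 fold change of 3.04 ± 0.41 with UMIs in 13 members, and 0 UMIs in library 3. Ccl19, a ligand of Ccr7, was at 2599, 80.6 and 211 CPM against 83.8, 17.7 and 0.727 CPM (log2 fold change 3.82 ± 0.47, edgeR adjusted p = 1e-13). For Ccl11 and Ccl19 the lowest fibroblast library lay below the highest comparison library. Their calls ended without the members with markers of another class (edgeR adjusted p = 0.484 and 0.156). They ended without the library block too (edgeR adjusted p = 0.186 and 0.326), which also ended that of Ccl7 (0.127). Cxcl14, an orphan-receptor chemokine, was lower (log2 fold change -2.43 ± 0.62, edgeR adjusted p = 0.00267) and so was Il33, which is given with the pial markers. Vcam1, an adhesion molecule for leukocytes, did not pass (211, 193 and 421 CPM against 96.2, 128 and 116 CPM; edgeR adjusted p = 0.597).

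Of 11 tested complement genes (20 listed) 2 were higher and 5 lower, with a median log2 fold change of -1.69. The 36 members without markers of another class gave 2 higher and 5 lower of 9 tested, median -2.61, and with no low-count filter the median was 0.16 over 18 genes. Serping1, the C1 inhibitor and 1 of the 2 higher genes, was detected in 33 members at 632, 499.7 and 737 CPM against 38.3, 38.8 and 44.7 CPM (log2 fold change 3.36 ± 0.40, edgeR adjusted p = 3.75e-15). The lower ones included the 3 chains of C1q, which microglia make. C1qa was at 316, 113 and 0 CPM against 1024, 941 and 614 CPM (log2 fold change -2.96 ± 0.53, edgeR adjusted p = 1.31e-06). C1qb and C1qc had log2 fold changes of -2.999 ± 0.52 and -4.01 ± 0.64. C1q was highest in library 1, as the summed microglial markers were, and their part in the C1q values was not tested. C4b and the extracellular chaperone gene Clu were lower as well (log2 fold changes -2.77 ± 0.62 and -2.74 ± 0.49). C3, at 211, 32.2 and 0 CPM against 19.1, 11.1 and 1.82 CPM, missed the threshold (edgeR adjusted p = 0.0509) and passed with the sums scaled by their totals (0.0184). C1s1 did not pass (edgeR adjusted p = 0.2).

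All 34 genes of the interferon response and MHC class I list were tested; 3 were higher and 1 lower, against 2.59% and 4.12% of all genes tested, with a median log2 fold change of -0.28, or -0.22 with genes at 0 at their bound. Over the 36 members without markers of another class this became 3 higher and 6 lower of 34 tested, median -0.91, and scaling by totals gave 5 higher genes with a median of 0.12. The 3 higher genes encode interferon-induced transmembrane proteins. Ifitm2 was at 913, 1322 and 1686 CPM against 143, 180.1 and 139 CPM (log2 fold change 2.45 ± 0.37, edgeR adjusted p = 5.6e-09). Ifitm1 was at 632, 661 and 1053 CPM against 74.5, 92.6 and 121 CPM (log2 fold change 2.45 ± 0.38, edgeR adjusted p = 1.57e-08). Ifitm3, the most abundant, was at 3020.2, 5142 and 4951 CPM against 652, 1067 and 1079 CPM (log2 fold change 1.64 ± 0.38, edgeR adjusted p = 0.000616). All fibroblast libraries of these 3 genes stood above all comparison libraries. Mural cells stood at 1076 CPM for Ifitm1 and 3266 CPM for Ifitm3, pooled over libraries, against 689.97 and 4519.8 CPM in fibroblasts, and neither gene passed against them (edgeR adjusted p = 0.318 and 0.448). Nor did Ifitm3 against endothelial cells (edgeR adjusted p = 0.86). With the stricter gate Ifitm3 no longer passed (edgeR adjusted p = 0.056). Ifi27l2a, a mitochondrial interferon-induced gene, was lower (457, 96.7 and 105 CPM against 395, 585 and 945 CPM; log2 fold change -1.90 ± 0.49, edgeR adjusted p = 0.00304), though library 1 was above its own comparison value. The class I genes B2m and H2-D1 did not pass (edgeR adjusted p = 0.397 and 0.219), and were called lower without the members with markers of another class (0.00108 and 0.0233).

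Of 20 tested immediate early and heat shock genes (23 listed), 1 was higher and 1 lower, near the 2.59% and 4.12% of all genes tested, with a median log2 fold change of -0.86, or -0.59 with genes at 0 at their bound. The 36 members without markers of another class gave 0 higher and 5 lower of 20 tested, median -1.28; 4 were lower without the library block, and with DESeq2 neither of the 2 called genes, Fos and Ier3, passed. Fos, the immediate early gene most used to mark active cells, was at 35.1, 16.1 and 211 CPM against 155, 217 and 211 CPM (log2 fold change -2.65 ± 0.72, edgeR adjusted p = 0.0057). The level in library 3 rested on 2 UMIs and lay close to that of its own comparison cells. The call ended with DESeq2 (adjusted p = 0.0564). Ier3, a stress-induced survival gene, was at 140.5, 145 and 843 CPM against 44.99, 58.9 and 57.8 CPM (log2 fold change 1.62 ± 0.49, edgeR adjusted p = 0.0166), and the call ended under 3 alternatives besides the left-out libraries (edgeR or DESeq2 adjusted p 0.0752 to 0.392). Hspa8 and Jund did not pass (edgeR adjusted p = 0.133 and 0.305), and Hspa8 was called lower without the members with markers of another class (log2 fold change -1.53, edgeR adjusted p = 0.00333).

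None of the 3 FLiCRE features passed against other non-neuronal cells. Of 51 fibroblasts, 7 held 1 mCherry UMI each (13.7%). The level of mCherry was 35.1, 96.7 and 0 CPM in libraries 1 to 3 against 15.0, 78.5 and 20.01 CPM (log2 fold change 0.11 ± 0.71, edgeR adjusted p = 0.953). A UMI of mCherry was in 5.32% of other non-neuronal cells (median 1200 UMIs) and in 5.76% of oligodendrocytes (median 2014 UMIs). Thinned to 1000 UMIs per cell, which left out 11 fibroblasts and 1803 other cells, the shares were 5% and 3.08%. The thinned share rests on 2 of 40 fibroblasts and cannot be told from background. TEV was in 1 fibroblast and tTA in 2 (edgeR adjusted p = 0.289 and 0.766).

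Lists of markers for the layers of the meninges described which fibroblasts these were, without clustering. In the list for pia and perivascular space, 14 of 16 genes had a UMI; of 13 tested, 8 were higher and 2 lower than in other non-neuronal cells, with a median log2 fold change of 3.30. The 8 include Lama1, Col15a1, Slc6a13, Cyp1b1, Pdgfra and Cxcl12, given above, S100a6, a calcium-binding protein (1.52 ± 0.38 on the log2 scale), and Fbln1, a fibulin at 140.5, 64.5 and 316 CPM against 11.4, 2.71 and 7.64 CPM (log2 fold change 3.75 ± 0.73, edgeR adjusted p = 1.36e-05). Il33, an alarmin that oligodendrocytes express strongly, was lower (211, 258 and 105 CPM against 259.6, 849 and 1319 CPM; log2 fold change -2.08 ± 0.50, edgeR adjusted p = 0.000968). Lsamp, an adhesion protein of neural cells, had 0 UMIs in fibroblasts and was at least 3.05-fold lower (edgeR adjusted p = 0.00142). Nnat and Rgcc did not pass (edgeR adjusted p = 0.7 and 0.349), and Tcf21 was at 0 here.

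Over single cells, S100a6 was detected in 86.3% of members and 30.6% of oligodendrocytes. The shares were 70.6% and 0.786% for Cxcl12, 60.8% and 0.0873% for Slc6a13, and 43.1% and 0.0873% for Cyp1b1. Col15a1 and Lama1 were each detected in 33.3% of members and Fbln1 in 15.7%.

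The list for arachnoid and its barrier gave 2 higher and 4 lower of 6 tested genes (16 listed). With DESeq2, the edgeR defaults, the stricter gate or scaling by totals, 2 were lower. Aldh1a2 was 1 of the 2 higher genes. Barrier genes were not detected: Slc47a1, Slc26a7, Slc22a2, Crabp2, Cdh1, Krt18 and Dpp4 had 0 UMIs in 51 fibroblasts, which allows up to 30.0 CPM over the group. Cldn11, the tight junction claudin that arachnoid cells share with oligodendrocytes, was at 70.2, 161 and 105 CPM against 1196, 1469.8 and 2522 CPM (log2 fold change -4.05 ± 0.56, edgeR adjusted p = 6.26e-11), with all fibroblast libraries below all comparison libraries. The efflux pump genes Abcb1a and Abcg2, which endothelium expresses, had 1 UMI each, with pooled ratios of 0.125 and 0.116 with exact 95% counting intervals of 0.00317 to 0.701 and 0.00293 to 0.647. Both were called lower, but the call of Abcb1a ended under 5 alternatives besides the left-out libraries (edgeR or DESeq2 adjusted p 0.0715 to 0.15) and that of Abcg2 under 4 alternatives besides the left-out libraries (edgeR or DESeq2 adjusted p 0.0651 to 0.121). Ptgds, the prostaglandin D synthase of leptomeninges and oligodendrocytes, was at 246, 2144 and 737 CPM against 1109, 1959 and 2754 CPM (log2 fold change -1.38 ± 0.43, edgeR adjusted p = 0.0246). The fibroblast value of library 2 exceeded its own comparison value, and the call ended without the library block (edgeR adjusted p = 0.181). Against endothelial cells Ptgds was higher (log2 fold change 1.53 ± 0.29, edgeR adjusted p = 0.0047) and Cldn11 did not pass (0.723). Cldn11 was lower than in mural cells (edgeR adjusted p = 0.0074), though it was detected in 15.7% of fibroblasts and 11.5% of mural cells. A single mural cell held 64 of the 224 mural UMIs of Cldn11. Mural cells were not screened for markers of another class. The arachnoid list gave 2 higher and 1 lower of 4 tested genes against mural cells, and 3 higher and 2 lower of 6 against endothelial cells. Of 15 dural markers, 9 had a UMI and 6 were tested. Fmod was higher, and Ndrg1, a stress-responsive gene of myelinating cells too, was lower (0, 64.5 and 0 CPM against 180.5, 189 and 343 CPM; log2 fold change -2.84 ± 0.72, edgeR adjusted p = 0.00223). The 4 UMIs of Ndrg1 lay in 1 member. Alpl, Nov, Kera, Crabp1 and Alx1 were at 0 UMIs.

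Fibroblasts differed among themselves, and part of that difference followed the library. Igfbp5 was detected in 13 of 18 members of library 1, 5 of 28 of library 2 and 1 of 5 of library 3, whereas Igfbp2 was detected in 8, 25 and 5. Over the 51 members, 10 cells had Igfbp5 without Igfbp2 (9, 1 and 0 in libraries 1 to 3), 29 had Igfbp2 without Igfbp5 (4, 21 and 4), 9 had both and 3 had neither. The 10 cells with Igfbp5 alone (16567 UMIs, median 1418 per cell) held Col3a1 at 8088 CPM and Bgn at 2535 CPM, against 1417 CPM and 854 CPM in the 29 cells with Igfbp2 alone (51510.0 UMIs, median 1616). In the cells with Igfbp2 alone Ptn was at 12716 CPM, Igf2 at 1475 CPM, Slc6a13 at 1068 CPM and Aldh1a1 at 893 CPM, against 3199, 423, 423 and 121 CPM with Igfbp5 alone. Gjb2, the gap junction protein connexin 26 of leptomeningeal cells, was detected in 20 members (1, 16 and 3 in libraries 1 to 3), and all 20 also had Igfbp2. It was at 641 CPM in the cells with Igfbp2 alone and in 0 of the 10 cells with Igfbp5 alone, which allows up to 181 CPM. These sets were drawn from the values themselves and lie mostly in different libraries, so they are a description with no test, and library and cell set cannot be told apart.

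**Figure D3:**
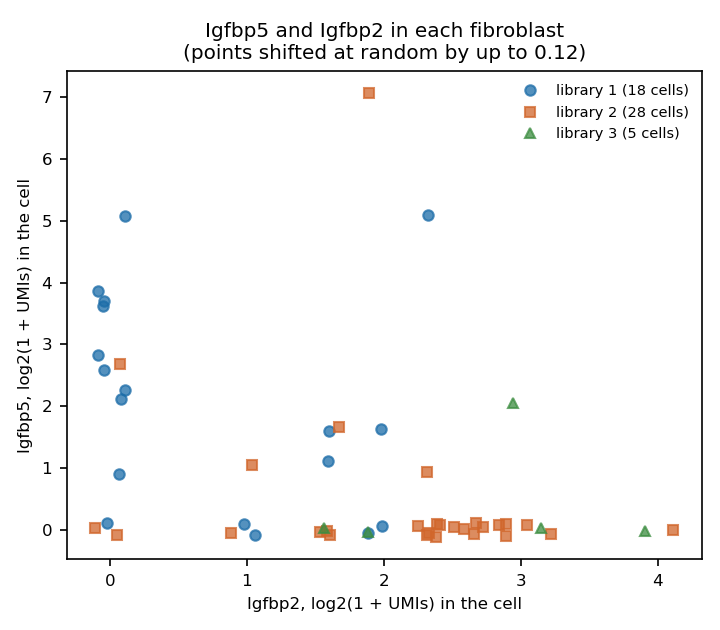
Igfbp2 (horizontal) and Igfbp5 (vertical) in each of the 51 fibroblasts, as log2 of 1 plus the UMIs in the cell, with points shifted at random by up to 0.12 and coloured by library. Of the 10 cells with Igfbp5 alone 9 are from library 1, and of the 29 with Igfbp2 alone 21 are from library 2.

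Several secreted factors rested on 1 cell. A single cell of library 2, with 5259 UMIs, held 41 of 53 UMIs of Mmp3 (the matrix metalloproteinase stromelysin 1), 43 of 63 of Ccl11, 44 of 60 of Ccl12, 28 of 36 of Cxcl10, 28 of 35 of the acute-phase gene Saa3 and 66 of 223 of Spp1. Without it, Mmp3 stood at 127 CPM over the other 50 cells instead of 529.97 CPM, and Ccl11 at 211 instead of 629.97 CPM. A cell of library 1 with 1672 UMIs held 58 of 81 UMIs of Ccl19, and the pooled level without it was 234 CPM against 809.96 CPM. The cell with the most UMIs of all, 7845 in library 2, held 125 of 266 UMIs of Igfbp5. Transcripts of glia behaved alike: 1 cell of library 2 held 60 of 147 UMIs of Ptgds, and 1 cell of library 1 held 61 of 77 of Mt3 and 25 of 45 of Slc1a2, both astrocyte genes. Apod, Ptn, Lgals1 and Serpinh1, by contrast, were detected in 50, 51, 49 and 45 of the 51 members.

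**Figure D4:**
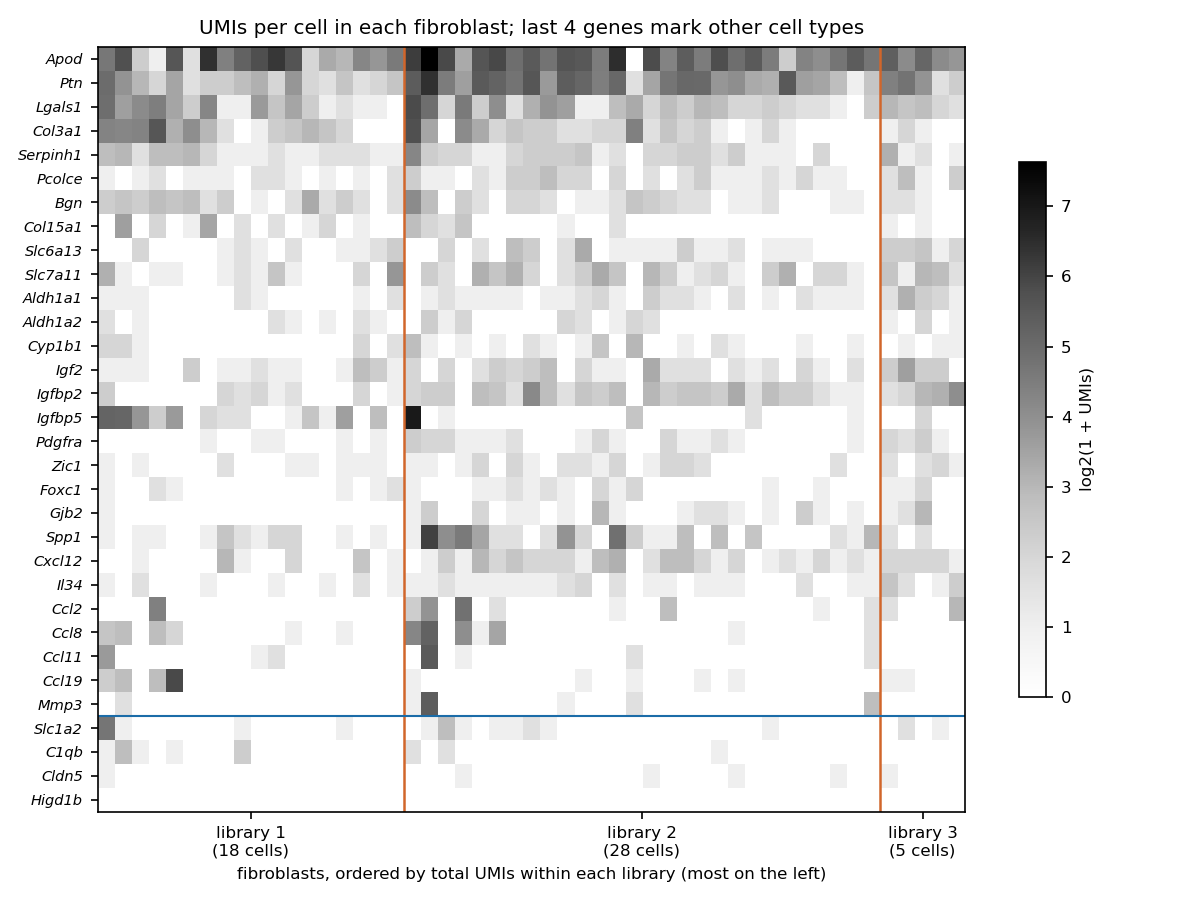
UMIs in each fibroblast (columns, grouped by library and ordered by total UMIs) for 32 genes (rows), in grey as log2 of 1 plus UMIs; the last 4 rows mark other cell types. Apod, Ptn and Lgals1 fill nearly every column, Ccl11, Ccl19 and Mmp3 are dark in 1 column each, and Higd1b is at 0 in all 51.

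Mural cells, the pericytes and smooth muscle cells that share the vessel wall with perivascular fibroblasts, were 253 cells chosen by at least 4 UMIs of Rgs5, Kcnj8, Abcc9, Myh11, Acta2 and Tagln with at least 2 detected. Of 685 genes tested, 48 were higher in fibroblasts (7.01%) and 75 lower (10.9%), with a median log2 fold change of -0.02; library 1 held 29 mural cells. The 3 comparisons share the same fibroblast sums, so each is given by its own values. A single fibroblast also passed the mural gate and stayed with the fibroblasts. Slc7a11 was at 1299, 1402 and 2212 CPM in fibroblasts against 0, 8.65 and 27.6 CPM in mural cells (log2 fold change 6.60 ± 0.47, edgeR adjusted p = 7.76e-07). Igfbp2 was at 667, 1902 and 3687 CPM against 0, 38.9 and 27.6 CPM (log2 fold change 6.13 ± 0.45, edgeR adjusted p = 7.76e-07). Efemp1, a fibulin-like glycoprotein, was at 281, 838 and 316 CPM on 63 UMIs against 2 in mural cells, a pooled ratio of 139 with an exact 95% counting interval of 36.9 to 1173 (edgeR adjusted p = 8.34e-06). Cyp1b1 rested on 46 UMIs against 3, a ratio of 67.7 with an interval of 21.8 to 340.1 (edgeR adjusted p = 0.000135). These 4 genes had 0 UMIs in mural cells of library 1, and no library overlapped between the groups. The low-count filter set that lack of overlap, since genes this low in mural cells were tested only by their fibroblast sums. Vamp5, which encodes a membrane fusion protein, was at 351, 741 and 1159 CPM against 0, 17.3 and 11.1 CPM (log2 fold change 5.75 ± 0.54, edgeR adjusted p = 6.68e-06). Vwa1, which encodes a matrix protein, was at 281, 355 and 948 CPM against 34.3, 12.98 and 5.53 CPM (log2 fold change 5.15 ± 0.68, edgeR adjusted p = 7.88e-05). The 4 lowest had 0 UMIs in fibroblasts. Higd1b, a pericyte marker, stood at 1954, 1704 and 1951 CPM in mural cells and was at least 60.7-fold lower. The synuclein gene Sncg, the receptor gene Notch3 and the cytochrome oxidase gene Cox4i2 were at least 17.1, 14.1 and 12.8-fold lower. Since fibroblasts were limited in Rgs5 and mural cells were chosen partly by it, the direction of these genes is partly set by the gates. Col3a1 was higher than in mural cells too (2.92 ± 0.34 on the log2 scale, edgeR adjusted p = 3.15e-05), whereas Bgn (1.13 ± 0.43; 0.0981) and Zic1 (0.58 ± 0.36; 0.357) did not pass; Bgn did with the edgeR package defaults (0.0223). Nr2f2, Slc6a20a, Rarres2, Serping1 and Il34 did not pass against mural cells either (edgeR adjusted p = 0.767, 0.441, 0.276, 0.112 and 0.0853). The same was true of Ccl11, Nid1 and Lrp1 (edgeR adjusted p = 0.708, 0.0657 and 0.0663). Igfbp5 did not pass either (log2 fold change 3.58 ± 1.34, edgeR adjusted p = 0.224), and 1 mural cell held 57 of its 78 mural UMIs. Pdgfrb was lower in fibroblasts (log2 fold change -1.59 ± 0.34, edgeR adjusted p = 0.00396). With 1 library left out the counts ran from 0 to 73 higher and from 0 to 96 lower genes; both were 0 without library 1, where 441 genes had an edgeR unadjusted p under 0.05.

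Endothelial cells were 440 cells chosen by at least 4 UMIs of Cldn5, Flt1, Ly6c1 and Pecam1 with at least 2 detected. Of 2427 genes tested, 210 were higher in fibroblasts (8.65%) and 306 lower (12.6%), with a median log2 fold change of -0.18. Col3a1 rested on 318 UMIs in fibroblasts against 3, a pooled ratio of 839.5 with an exact 95% counting interval of 285 to 4092 (edgeR adjusted p = 6.66e-06). Slc6a13 rested on 75 against 1, a ratio of 594 with an interval of 103 to 23771 (5.93e-06). Cyp1b1, Prelp, Aldh1a2 and Fmod had 0 UMIs in endothelial cells and were at least 121, 89.8, 89.8 and 66-fold higher in fibroblasts, against a floor of 3 UMIs over the endothelial cells. Prelp, a leucine-rich repeat proteoglycan, was at 316, 242 and 1053 CPM in fibroblasts. In the other direction Ctla2a, at 1702, 2157 and 1781 CPM in endothelial cells, was at least 63.9-fold lower. The peptidoglycan recognition gene Pglyrp1, the thyroid hormone transporter gene Slco1c1 and the phosphatase gene Ptprb were at least 39.6, 23.8 and 24.3-fold lower. Cxcl12 did not pass against endothelial cells, which stood at 499, 554 and 978 CPM (log2 fold change 0.58 ± 0.30, edgeR adjusted p = 0.229). Igf2 (7.60 ± 0.41 on the log2 scale) and Igfbp2 (7.25 ± 0.44) both passed. Leaving out a library took the counts to between 2 and 77 higher and between 0 and 53 lower genes; the lower ends are 2 and 0 without library 1, and 4 and 0 without library 2, where 727 and 458 genes had an edgeR unadjusted p under 0.05.

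**Figure D5:**
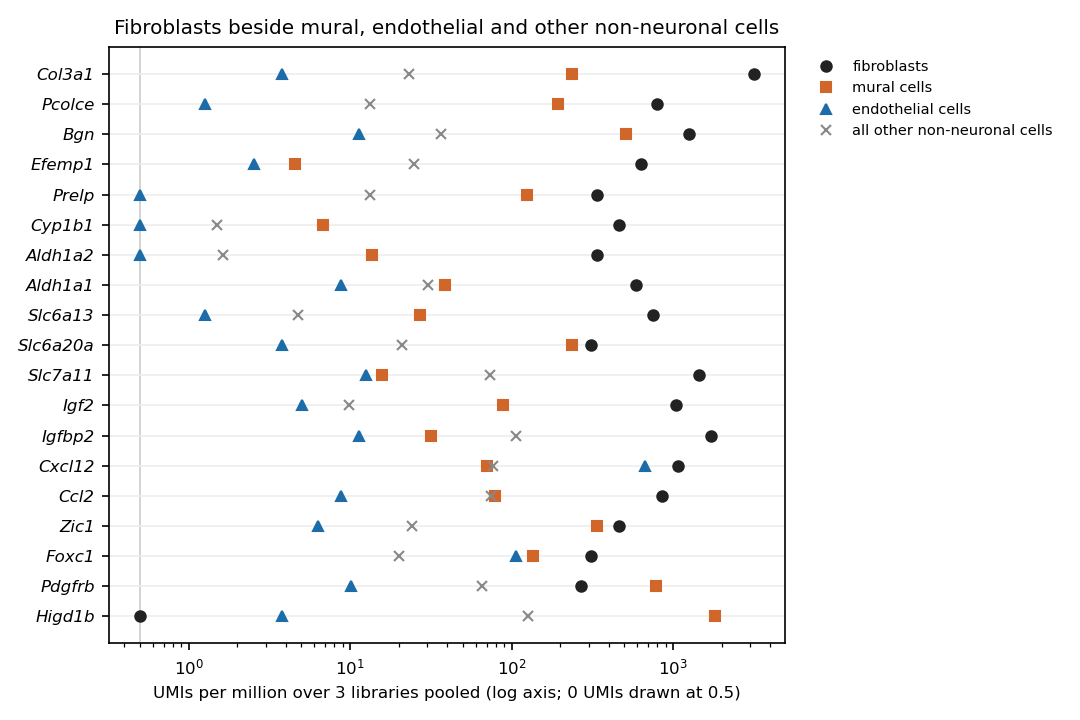
Pooled level over 3 libraries in CPM (log axis) of 19 genes in fibroblasts, mural cells, endothelial cells and all other non-neuronal cells, which include 244 of the mural and 420 of the endothelial cells. Cyp1b1, Prelp and Aldh1a2 are at 0 in endothelial cells, Pdgfrb is highest in mural cells, and Higd1b is at 0 in fibroblasts.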

How the data were processed

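The 3 samples of 1 group were deposited as 1 matrix of raw UMI counts per gene and cell (28001 features, 11625 cells), made by the authors with Cell Ranger 3.0 and mm10, per the submitters' processing notes. No label ties a barcode suffix to a sample, so libraries carry the suffix. Totals per library stand in the report; they set the counting error.

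Cells were gated, and counts summed per library and class. Sums were tested with edgeR 4.0.16 in R 4.3.3 (quasi-likelihood F test, TMM, filterByExpr, library block, Benjamini-Hochberg, threshold 0.05); SE was computed as the absolute log2 fold change over the square root of F. The script was tested on simulated data. No doublet caller was run. Results for a few listed genes, which the list counts include, are not reported here.

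The members and lists were chosen with earlier results of these data known. Genes were named by fixed rule: the 12 largest, 6 lowest and 8 most abundant called genes, up to 6 called and 3 uncalled per list, and the 6 largest and 4 lowest against mural and endothelial cells. Of those the rule names, 22 uncalled genes (edgeR adjusted p 0.295 to 0.999), most with a sign that turned under an alternative, are not described, a choice made after their values were seen. Named outside it, after their values were seen, were Col4a1, Col4a2, Col4a5, Col5a1, Col5a2, Col6a1, Col6a2, Sparc, Igfbp4, Bmp7, Mdk, Ccl8, Cxcl14, Il33, Clu and S100a6 in the first comparison, the genes called by name against mural and endothelial cells beyond the largest and lowest, and the single-cell genes. Alternatives were edgeR's defaults, DESeq2 1.42.0, other scalings, no filter, no block, left-out libraries and other gates.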

Additional observations from a re-analysis of the deposited data

How the results depend on the processing

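The share of fibroblasts among non-neuronal cells stayed within its SD under every alternative run (0.63% to 1.34%; 0.826% to 1.24% with a library left out). Against other non-neuronal cells, the 237 higher genes became 156 with the stricter gate and 142 without members with markers of another class, and 0 to 9 with a library left out; the 377 lower genes became 221 with DESeq2, 251 with the stricter gate, 579 without members with markers of another class, and 0 to 8 with a library left out. Against mural cells, the 48 higher genes became 95 with no low-count filter, 28 with the stricter gate, 28 in cells with at least 1000 UMIs, 29 without members with markers of another class, and 0 to 73 with a library left out; the 75 lower genes became 189 with no filter, 40 in cells with at least 1000 UMIs, 47 without members with markers of another class, and 0 to 96 with a library left out. Against endothelial cells, the 210 higher genes became 130 with the stricter gate, 117 without members with markers of another class, and 2 to 77 with a library left out; the 306 lower genes became 547 with no filter and 0 to 53 with a library left out. Fewer cells or libraries enter those fits; beyond that the cause was not tested.

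A count of 0 came from edgeR in fits on 2 libraries, in which 441 to 1235 genes had an unadjusted p under 0.05; DESeq2 was not run there. Without the replicate block the counts were 230 and 463, 36 and 60, and 195 and 289 (higher and lower against other non-neuronal, mural and endothelial cells); the block is the library in which both classes were captured. Over the genes named, 1616 values under an alternative kept direction and side of the threshold, 417 lost the call (348 of them with a library left out), 16 gained one and 8 turned, none of these 8 past the threshold in either fit. Genes that an alternative could not test are in none of these counts. The mCherry log2 fold change turned to -0.060 with no low-count filter, ran from -0.23 to 0.091 with a library left out (below 0 without library 1 or 2), and was -1.33 without members with markers of another class, and that of tTA ran from -1.83 to 0.61 with a library left out, above 0 without library 2. Without members with markers of another class, Ppib was at -0.11, Lama2 at -0.079 and Vcam1 at -0.20. Library 3, with 5 members and 9493 UMIs, limits the depth most: 1 UMI there equals 105 CPM.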
